A study of Mus musculus with 6 samples.

Results

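The array used in this study carries 639 oligonucleotide probes whose names begin with mouselincRNA, and they make up 639 of its 60823 non-control probes. They were chosen by name alone from the scanner files. Each name holds a number and a + or - sign, and probes that share a number and differ in the sign were taken as the strands of 1 locus. There were 321 + probes and 318 - probes at 332 numbered loci. Of these loci, 307 had a probe of each sign, 14 had only the + probe and 11 had only the - probe. Each probe was printed once on each array. The sources used here do not say what genome direction + or - refers to, so the signs are used only as names, and the sequences and genome positions of these probes were not analysed here.

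The RNA came from small extracellular vesicles (sEVs) released by minced fat of C57BL/6 male mice in spinner culture for 2 days and collected by ultracentrifugation. The sEV-BAT group (3 arrays) used interscapular brown fat and the sEV-WAT group (3 arrays) used inguinal white fat. The mice were 6 to 8 weeks old by the sample labels and 6 weeks old by the isolation protocol, no gene was altered and no agent was given, and each replicate pooled several mice. RNA was labelled with random primers, so that the whole length of a transcript can contribute signal, and hybridized to Arraystar Mouse LncRNA Arrays V4 in 1 colour.

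Long intergenic non-coding RNAs (lincRNAs) are transcripts longer than small regulatory RNAs that are made from stretches between protein-coding genes and are not translated. Many were first located by the chromatin marks of active genes, which show where a transcribed stretch lies but not which strand is copied, and a pair of probes in opposite orientation can then report each strand separately. In fat tissue some lincRNAs act in adipocyte differentiation and in the heat-producing programme of brown fat, often through proteins that bind chromatin. No role in fat is assigned here to any single mouselincRNA number, because the files give these probes no gene name.

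The tissue labels could be checked only in small part. Of 30 marker genes of brown fat, white fat, adipocytes, vesicles and other cells of fat, 2 could be named through the transcript accessions in the files. Ppara, a nuclear receptor of fatty acid oxidation that is high in brown fat, had normalized log2 intensities of 6.78, 4.94 and 7.62 in sEV-BAT and of 4.72, 5.10 and 4.75 in sEV-WAT, so sEV-BAT replicate 2 lay within the sEV-WAT range and the groups overlapped. Rab5a, a GTPase of early endosomes, had 4.71, 5.93 and 5.66 in sEV-BAT and 4.76, 4.73 and 4.65 in sEV-WAT, with sEV-BAT replicate 1 inside the sEV-WAT range. Neither passed an adjusted p of 0.05 in limma (adjusted p = 0.172 and 0.191). The defining markers of brown fat and of white fat themselves were not named in the files, so that the labels rest on the submitters.

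The mouselincRNA probes were dimmer than the array as a whole. The median over the 639 probes of their mean normalized log2 intensity was 5.25, against 6.14 for all probes. It was 5.04 for the 1092 humanlincRNA probes and 5.42 for the 75 MM9LINCRNAEXON probes, which are also named for lincRNAs. The middle of the set was broad, with quartiles at 3.55 and 7.78, and single probes ran from 1.01 to 15.34. Values above 12 on this scale were held by 33 mouselincRNA probes (5.16%), against 9.02% of all probes. Because each probe binds its target with its own strength, these figures describe signal and give no order of RNA amounts between probes.

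A probe was called detected on an array where the scanner software marked it as well above the local background. By this mark 460 of the 639 probes (72.0%) were detected on all 6 arrays, 112 on 1 to 5 arrays and 67 (10.5%) on none, against 81.5% on all arrays and 5.15% on none over all probes. The + probes were detected 270, 263 and 271 times in sEV-BAT and 241, 248 and 252 times in sEV-WAT, and the - probes 265, 262 and 278 times in sEV-BAT and 242, 242 and 245 times in sEV-WAT. The mark was rare on spots that should carry no target. Of 308 negative control spots on each array, between 0 and 3 were marked (at most 0.974%).

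More mouselincRNA probes were detected in vesicles of brown fat than in those of white fat. The 3 sEV-BAT arrays detected 535, 525 and 549 of them and the 3 sEV-WAT arrays 483, 490 and 497, so the groups did not overlap. On average a sEV-BAT array detected 536.3 ± 12.06 of them (SD, n = 3), or 83.9%, while a sEV-WAT array detected 490.0 ± 7.0 (SD, n = 3), or 76.7%, and the exact two-sided permutation test gave p = 0.1, the smallest value that 3 arrays against 3 can give. The sEV-BAT array that shared a slide with all sEV-WAT arrays detected 45 more than their mean. Over all probes the same count rose from 85.4% to 91.2% (exact permutation p = 0.1), and whether the gap was larger among mouselincRNA probes was not tested.

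The sEV-BAT arrays were also brighter before any scaling between arrays. The median background-subtracted intensity of the mouselincRNA probes reached 52.7, 40.8 and 51.3 in sEV-BAT and 31.9, 31.1 and 32.8 in sEV-WAT. The groups did not overlap, sEV-BAT replicate 2 was the dimmest of its group, and the difference in the median log2 intensity was 0.59 (1.50-fold, exact permutation p = 0.1). All probes together moved by 0.59 as well, and their median also stood 1.50-fold higher. Quantile normalization, which gives every array the same distribution of values, removed this common difference, so each change below is relative to all other probes. The share of detected probes moved with the brightness of the arrays, and the part of brightness in detection was not tested. In such bulk samples, a smaller amount of vesicles from a cell type and less of an RNA in each vesicle cannot be told apart.

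Detection by group was one-sided here and over all probes. Of the 639 probes, 11 were detected on every sEV-BAT array and on no sEV-WAT array (1.72%, against 1.25% of all probes). The reverse was shown by 0 of the 639 and by 4 of all 60823 probes (0.00658%). Those 11 were mouselincRNA1545-, mouselincRNA0010-, mouselincRNA0770+, mouselincRNA1514-, mouselincRNA1155-, mouselincRNA0763+, mouselincRNA1039-, mouselincRNA1005-, mouselincRNA1606+, mouselincRNA1177- and mouselincRNA0869-. All 11 were dim where detected, with mean normalized log2 intensities in sEV-BAT between 3.05 and 3.96, below the median of the set.

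Once arrays were scaled alike, the groups overlapped at 5 of the 11. mouselincRNA0010- had 3.68, 3.48 and 3.63 in sEV-BAT and 3.45, 3.48 and 3.46 in sEV-WAT, so that 1 sEV-WAT array reached the lowest sEV-BAT array. mouselincRNA0763+ had 3.10, 3.74 and 3.32 in sEV-BAT and 3.06, 3.54 and 3.37 in sEV-WAT, with a limma difference of 0.06 whose direction turned to -0.22 with slide as a block, to -0.11 without sEV-BAT replicate 2 and to -0.07 without sEV-WAT replicate 1. Among the others, mouselincRNA0770+ had 3.78, 3.55 and 3.42 in sEV-BAT and 3.21, 2.52 and 2.18 in sEV-WAT. Its sEV-WAT values lay below the lowest value that the scanner marked there, so that difference is given as an approximate bound. The bound is not strict, since an undetected probe can lie above that lowest value. On sEV-WAT replicate 2 the lowest marked value was 3.01, while mouselincRNA0763+ was undetected at 3.54. On the quantile-normalized values the approximate bound of mouselincRNA0770+ was 1.22-fold higher in sEV-BAT (adjusted p = 0.0816 in limma for its fitted difference). Like all of the 11, it entered that test only through sEV-BAT. With normexp background correction its difference was 0.09 on the log2 scale, which is smaller than the bound, so the bound does not hold across background corrections. The approximate bounds of the others ran from 1.02-fold for mouselincRNA1005- to 1.59-fold for mouselincRNA1545-, and 5 of the 11, mouselincRNA0763+, mouselincRNA1039-, mouselincRNA1606+, mouselincRNA1177- and mouselincRNA0869-, had no bound above 1.

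The pairs show which strand of a locus gave signal. A strand was counted where its probe was detected on at least 3 of the 6 arrays. By that rule both strands were counted at 202 of the 307 paired loci, the + strand alone at 43, the - strand alone at 50 and neither at 12. The sharpest contrast, 1 strand detected on all 6 arrays and the other on none, was found at 49 loci, 24 with the + strand and 25 with the - strand. At 163 loci both strands were detected on every array. Each sign alone was thus found about equally often, and signal from both orientations was more frequent than signal from 1. Taken singly, 81.4% of mouselincRNA probes and 89.5% of all probes passed the same rule. Whether the strands of a locus were detected together more often than unrelated probes was not tested.

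The strands that were detected were nearly the same in both kinds of vesicle. When a strand was counted within a group only if all 3 of its arrays detected it, 269 of 307 loci had the same strands in sEV-BAT and sEV-WAT. At 34 loci sEV-BAT had a strand that sEV-WAT lacked, at 4 loci it lacked one that sEV-WAT had, and 0 loci changed from 1 strand to the other. Both strands were counted at 190 loci in sEV-BAT and at 167 in sEV-WAT, and neither at 17 and 27. These counts run the same way as the number of detected probes per array given above. Over all probes the share detected was also higher in sEV-BAT (91.2% against 85.4%).

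The brightness of the + and - probe of a locus was compared only as a description, since different oligonucleotides differ in how well they bind. The + probe was brighter on every array at 130 loci, the - probe on every array at 135, and the order varied between arrays at 42. The absolute difference between strands had a median of 2.92 on the log2 scale, and it was at least 1 at 253 loci, at least 3 at 150 and at least 6 at 52. The levels of the strands were almost unrelated across loci, with a Spearman rho between 0.02 and 0.04 on each array over 305 to 307 loci that share the array, its depth and its labelling.

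The widest gaps had a bright strand beside one at background. At mouselincRNA0538 the + probe lay between 14.35 and 14.64 on the 6 arrays and the - probe between 2.58 and 3.40, where it was detected on 1 array. At mouselincRNA0807 the - probe lay between 13.98 and 14.46 and the + probe between 1.67 and 3.84, detected on 2 arrays, both of sEV-WAT. mouselincRNA0970 had a gap of similar size, with the - probe between 14.52 and 15.25 and a + probe at 3.91 to 5.09 that was nevertheless detected on all 6 arrays.

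The 10 brightest mouselincRNA probes, 5 of each sign, were bright in both kinds of vesicle. They were mouselincRNA0772-, mouselincRNA0499+, mouselincRNA0970-, mouselincRNA1592+, mouselincRNA0538+, mouselincRNA1437+, mouselincRNA0807-, mouselincRNA0706+, mouselincRNA0013- and mouselincRNA0161-, and 9 of them had a probe for the opposite strand. The brightest, mouselincRNA0772-, had normalized log2 intensities of 15.08, 15.56 and 15.28 in sEV-BAT and 15.30, 15.41 and 15.44 in sEV-WAT, and its opposite strand stayed between 6.38 and 6.79. The groups of mouselincRNA0772- overlapped, and its limma difference was -0.08 (SE 0.14, adjusted p = 0.748), which without sEV-BAT replicate 1 was 0.03. mouselincRNA0499+ kept within 15.27 and 15.43 on all 6 arrays, the narrowest range among the 10. At 2 of these loci the opposite strand was above 10 on every array. At mouselincRNA1592 the + probe lay between 14.67 and 15.09 and the - probe between 10.07 and 11.20, and at mouselincRNA0013 the - probe lay between 13.53 and 13.77 and the + probe between 11.58 and 11.83.

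Only mouselincRNA0970- among the 10 passed an adjusted p of 0.05. It had 14.69, 14.56 and 14.52 in sEV-BAT and 15.01, 15.18 and 15.25 in sEV-WAT. The sEV-BAT arrays all lay lower, and the difference was -0.55 (SE 0.11, limma adjusted p = 0.041), short of a 2-fold change. The least stable of the bright probes was mouselincRNA0706+, which has no - partner and had 13.28, 14.29 and 12.99 in sEV-BAT against 14.09, 14.08 and 13.90 in sEV-WAT. Here sEV-BAT replicate 2 stood above every sEV-WAT array while the other sEV-BAT arrays stood below them.

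The main comparison asked which of these transcripts differ between vesicles of brown and of white fat. It was tested with limma over all 54443 probes detected on at least 3 of the 6 arrays, and 520 mouselincRNA probes (259 + and 261 -) were among them while 119 were too dim. At the thresholds of the study, a fold change of at least 2 and an unadjusted p of at most 0.05, 7 mouselincRNA probes were higher and 7 lower in sEV-BAT, together 2.69% of the 520 against 2.27% of all probes tested (1.11% higher and 1.16% lower). Of the 7 higher probes, mouselincRNA1545- was detected on no sEV-WAT array and entered the test only through sEV-BAT. The split into higher and lower probes depended on the scaling. Without normalization between arrays 88 were higher and 2 lower, and with each array shifted by its 75th percentile 16 were higher and 4 lower. Without sEV-BAT replicate 2 the 14 calls became 36.

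After Benjamini-Hochberg adjustment over all probes, limma called 35 mouselincRNA probes at an adjusted p of at most 0.05, 9 higher and 26 lower in sEV-BAT. This is 6.73% of those tested against 7.61% of all probes (2.79% higher and 4.81% lower). Of the 35, 28 changed by less than 2-fold, and the smallest called difference was 0.44 on the log2 scale. The adjusted calls changed with the arrays and the model used. Of the 35, 0 remained with slide as a block (61 at an unadjusted p of at most 0.05), 0 without sEV-BAT replicate 3 (120 unadjusted), 0 without sEV-WAT replicate 1 (141), 0 without sEV-WAT replicate 2 (112) and 0 without sEV-WAT replicate 3 (111). The methods' t-test also gave 0 (131 unadjusted). Without sEV-BAT replicate 1 the count was 16, and without sEV-BAT replicate 2 it was 45, 21 of them among the 35. Before adjustment 148 had a p of at most 0.05, or 28.5% against 28.8% of all probes.

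Differences were small in general. The median over the 520 probes was -0.06 on the log2 scale, against -0.02 over all probes tested, and 398 of the 520 (76.5%) differed by less than 0.5. The groups did not overlap, with sEV-BAT above, in 64 probes (12.3% against 14.5% of all probes), and with sEV-BAT below in 121 (23.3% against 21.8%). The + and - probes gave like counts, with 7 study calls and 18 adjusted calls for + and 7 and 17 for -. The mouselincRNA set therefore differed between vesicles about as often as the array did.

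Of the 7 higher probes, 4 were bright and passed the adjusted threshold. mouselincRNA1555- had normalized log2 intensities of 9.25, 9.45 and 9.84 in sEV-BAT and 8.46, 8.20 and 7.86 in sEV-WAT, a difference of 1.34 (SE 0.21, 2.53-fold, limma adjusted p = 0.0344). The groups did not overlap, and the difference stayed between 1.18 and 1.48 with any array left out. mouselincRNA1256+ had 11.94, 12.34 and 12.43 in sEV-BAT and 11.31, 10.99 and 10.82 in sEV-WAT, a difference of 1.20 (SE 0.18, 2.30-fold, adjusted p = 0.0335). mouselincRNA0971+ had 12.66, 12.84 and 12.94 in sEV-BAT and 11.85, 11.50 and 11.54 in sEV-WAT, a difference of 1.18 (SE 0.14, 2.27-fold, adjusted p = 0.0332). In these 3 probes the range within each group was narrower than the difference between the group means. mouselincRNA0325+ had 10.06, 10.39 and 10.30 in sEV-BAT and 9.35, 9.15 and 8.94 in sEV-WAT, a difference of 1.103 (SE 0.15, 2.15-fold, adjusted p = 0.0332), which was 0.9996 on the log2 scale and so just under 2-fold without sEV-WAT replicate 3. In all 4 probes sEV-BAT replicate 1 was the lowest of its group and sEV-WAT replicate 1 the highest of its own.

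The other 3 higher probes were dimmer and spread more widely. mouselincRNA0209- had 6.02, 4.73 and 6.40 in sEV-BAT and 4.24, 4.70 and 4.68 in sEV-WAT, a difference of 1.18 (SE 0.43, adjusted p = 0.14). sEV-BAT replicate 2 exceeded the highest sEV-WAT array by little, and the unadjusted p rose above 0.05 when any 1 array other than sEV-BAT replicate 2 was left out, with differences from 0.83 (without sEV-BAT replicate 3) to 1.26 (without sEV-WAT replicate 2). mouselincRNA0953+ had 6.90, 6.54 and 7.61 in sEV-BAT and 5.78, 6.13 and 5.86 in sEV-WAT, a difference of 1.09 (SE 0.28, adjusted p = 0.065), which was 0.80 without sEV-BAT replicate 3. mouselincRNA1545- had 4.40, 3.18 and 4.30 in sEV-BAT and 2.73, 2.91 and 3.15 in sEV-WAT, where no array detected it. Its approximate bound was 1.59-fold higher in sEV-BAT (limma adjusted p = 0.112 for the fitted difference), and it entered the test only through sEV-BAT. Its fitted difference of 1.03 lost the unadjusted threshold without sEV-BAT replicate 1 (0.81), without sEV-BAT replicate 3 (0.86), without sEV-WAT replicate 1 (0.93) and without sEV-WAT replicate 2 (1.02). With normexp background correction the differences were 0.52 for mouselincRNA0209-, 0.69 for mouselincRNA0953+ and 0.22 for mouselincRNA1545-, which ended all 3 calls and for mouselincRNA1545- is smaller than the bound. In all 3 probes sEV-BAT replicate 2 was the lowest of its group, and the same array had the lowest Ppara value of its group.

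The largest decreases in sEV-BAT were shared by 4 bright probes with 1 order of arrays. mouselincRNA0118+ had 11.02, 10.55 and 10.10 in sEV-BAT and 11.46, 13.04 and 12.78 in sEV-WAT, a difference of -1.87 (SE 0.46, limma adjusted p = 0.0597), so that the sEV-BAT level was 0.273 of the sEV-WAT level. mouselincRNA1533- had 9.82, 9.46 and 8.76 in sEV-BAT and 10.14, 11.72 and 11.40 in sEV-WAT, a difference of -1.74 (SE 0.47, adjusted p = 0.0723). mouselincRNA0133- had 11.33, 10.86 and 10.63 in sEV-BAT and 11.44, 12.71 and 12.40 in sEV-WAT, a difference of -1.25 (SE 0.36, adjusted p = 0.0826), which was -0.98 without sEV-WAT replicate 2. In each of these the gap between sEV-BAT replicate 1 and sEV-WAT replicate 1 was much smaller than that between the other arrays. mouselincRNA1377+ had 12.04, 11.82 and 11.60 in sEV-BAT and 12.55, 13.21 and 13.17 in sEV-WAT, a difference of -1.16 (SE 0.21, adjusted p = 0.0395), and it alone of these 4 passed the adjusted threshold. From high to low, all 4 probes ordered the arrays as sEV-WAT replicates 2, 3 and 1 and then sEV-BAT replicates 1, 2 and 3. The decreases held at a fold of 2 with any array left out for mouselincRNA0118+ (-2.35 to -1.57), mouselincRNA1533- (-2.22 to -1.43) and mouselincRNA1377+ (-1.37 to -1.05). Without normalization between arrays mouselincRNA0133- was at -0.66 and mouselincRNA1377+ at -0.54, both under 2-fold.

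The remaining decreases were narrower. mouselincRNA1124- had 10.75, 10.58 and 10.75 in sEV-BAT and 11.67, 11.69 and 11.85 in sEV-WAT, the tightest groups among the 14 probes, with a difference of -1.05 (SE 0.10, adjusted p = 0.0332). It crossed the 2-fold line to -0.99 without sEV-BAT replicate 2, and to -0.99 without sEV-WAT replicate 3. mouselincRNA0448+ had 4.69, 4.48 and 4.56 in sEV-BAT and 5.54, 5.93 and 5.70 in sEV-WAT, a difference of -1.15 (SE 0.13, adjusted p = 0.0332). Its groups were far apart for their spread, although the signal was low and the difference was -0.42 with normexp background correction. mouselincRNA0578- had 4.87, 4.72 and 3.96 in sEV-BAT and 5.33, 5.56 and 5.74 in sEV-WAT, a difference of -1.03 (SE 0.26, adjusted p = 0.0631), which was -0.75 without sEV-BAT replicate 3 and -0.93 without sEV-WAT replicate 3. It was -0.34 with normexp and -0.30 without normalization between arrays, where mouselincRNA0448+ was at -0.45 and mouselincRNA1124- at -0.47, all under 2-fold.

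Slide and group overlapped in part, since sEV-BAT replicate 1 and the 3 sEV-WAT arrays lay on 1 slide and sEV-BAT replicates 2 and 3 on another. With slide as a block the estimate came from the first slide alone, as sEV-BAT replicate 1 against 3 sEV-WAT arrays. All 14 probes kept their direction there, and 4 kept both study thresholds in limma. Of these, mouselincRNA1555- (1.08), mouselincRNA0971+ (1.03) and mouselincRNA0448+ (-1.03) were detected in both groups, while mouselincRNA1545- (1.47) was undetected in sEV-WAT and entered the test only through sEV-BAT. Another 4 kept an unadjusted p of at most 0.05 at less than 2-fold, namely mouselincRNA1256+ (0.90), mouselincRNA0325+ (0.91), mouselincRNA1377+ (-0.94) and mouselincRNA1124- (-0.99). The remaining 6 lost that p, with differences of 1.48 for mouselincRNA0209-, 0.98 for mouselincRNA0953+, -1.40 for mouselincRNA0118+, -1.27 for mouselincRNA1533-, -0.86 for mouselincRNA0133- and -0.68 for mouselincRNA0578-. The part of the slide in these differences was not tested further.

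The opposite strands of the 14 probes differed about as often as other probes. All 14 had an opposite-strand probe, 13 of which were tested, and 0 of those were at the study thresholds in limma (2.27% of all probes), while 4 had an unadjusted p of at most 0.05 (28.8% of all probes). At 2 loci both strands leaned the same way. The - probe of mouselincRNA0325 had 7.87, 8.37 and 8.15 in sEV-BAT and 7.76, 7.49 and 7.46 in sEV-WAT (difference 0.56, adjusted p = 0.0825), and the - probe of mouselincRNA0448 had 4.22, 3.87 and 3.61 against 4.42, 4.38 and 4.74 (difference -0.61, adjusted p = 0.0946). Neither passed the adjusted threshold, although the groups of each did not overlap. At the other 2 loci, mouselincRNA0209 and mouselincRNA1256, the opposite strand lay lower in sEV-BAT while the called strand lay higher. mouselincRNA0209+ had 3.25, 3.32 and 2.71 in sEV-BAT and 4.36, 4.13 and 3.70 in sEV-WAT (difference -0.97, adjusted p = 0.058), and mouselincRNA1256- had 4.91, 5.29 and 5.03 against 5.69, 5.46 and 5.59 (difference -0.50, adjusted p = 0.0678).

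Over all 202 pairs with both strands tested, both strands had an unadjusted p of at most 0.05 at 17 loci, 8 with the same direction and 9 with opposite directions. A single strand had such a p at 81 loci and neither strand at 104, and the signs of the differences matched at 106 of the 202. Among single mouselincRNA probes 28.5% had such a p, and whether the strands of a locus changed together was not tested. No locus had both strands at the study thresholds. After adjustment, which called 6.73% of single mouselincRNA probes, 1 locus had both strands called. It was mouselincRNA0009, which is named here because it was the only such locus. Its + probe had 6.30, 6.16 and 6.08 in sEV-BAT and 6.75, 7.20 and 7.08 in sEV-WAT (difference -0.83, SE 0.14, adjusted p = 0.0368 in limma). Its - probe had 8.49, 8.30 and 8.43 in sEV-BAT and 8.95, 8.97 and 8.97 in sEV-WAT (difference -0.56, SE 0.09, adjusted p = 0.035). Both strands of mouselincRNA0009 were thus lower on every sEV-BAT array than on any sEV-WAT array.

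A change in the balance of the strands was tested on the + minus - log2 difference of each pair within an array, which cancels a fixed difference in binding and a uniform scaling of the array. It does not cancel background, so a pair with a strand near background can still move with the brightness of the array. The fit covered all 564 such pairs on the array with both probes tested, of which 202 were mouselincRNA pairs. At the study thresholds the balance shifted at 20 of the 202 pairs (9.90%, against 10.5% of all pairs), 13 toward the + strand in sEV-BAT (6.91% of all pairs) and 7 toward the - strand (3.55%). Among the 20, mouselincRNA0770, mouselincRNA0869 and mouselincRNA1545 had a strand that no sEV-WAT array detected. These pairs passed the filter only through sEV-BAT, so their calls are tied to it. At an adjusted p of at most 0.05 limma called 6 of them (2.97% against 2.66%), and 56 had an unadjusted p of at most 0.05 (28.4% of all pairs). These shares lay near those of all pairs. No adjusted call was left with slide as a block (20 pairs at an unadjusted p of at most 0.05) or when sEV-BAT replicate 1 (50 unadjusted), sEV-BAT replicate 3 (45) or sEV-WAT replicate 1 (48), 2 (38) or 3 (43) was left out, whereas 26 pairs passed without sEV-BAT replicate 2. Of the 20 pairs, 13 kept both study thresholds without sEV-WAT replicate 2 and 10 with slide as a block.

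The 6 adjusted calls were mouselincRNA1256, mouselincRNA1124 and mouselincRNA0484 toward + and mouselincRNA0869, mouselincRNA1466 and mouselincRNA1555 toward -. At mouselincRNA1256 the + minus - difference was 7.04, 7.06 and 7.40 in sEV-BAT and 5.62, 5.53 and 5.23 in sEV-WAT. It rose by 1.71 (SE 0.20, limma adjusted p = 0.0254) in sEV-BAT, with the + strand higher and the - strand lower there. At mouselincRNA1466 the difference was -3.15, -3.27 and -3.63 in sEV-BAT and -2.07, -1.65 and -1.99 in sEV-WAT, a shift of -1.45 (SE 0.21, adjusted p = 0.027). Its strands also leaned apart, since mouselincRNA1466- was higher in sEV-BAT (9.45, 9.56 and 9.54 against 8.78, 8.85 and 8.66, adjusted p = 0.0332) while mouselincRNA1466+ was at 6.30, 6.28 and 5.91 against 6.71, 7.20 and 6.67 (adjusted p = 0.0749). At these 2 loci the strands of a pair thus differed in opposite directions, although the weaker strand of each did not pass the adjusted threshold. The fitted signs were also opposite at the other called pairs, and choosing pairs by a large shift favours such signs.

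At mouselincRNA1124 the + minus - difference was -3.33, -3.16 and -3.22 in sEV-BAT and -4.46, -4.35 and -4.63 in sEV-WAT, a shift of 1.25 (SE 0.17, adjusted p = 0.027 in limma), and its + probe moved by 0.20 (adjusted p = 0.205). At mouselincRNA1555 it was -4.90, -4.58 and -5.43 in sEV-BAT and -3.51, -3.60 and -3.56 in sEV-WAT, a shift of -1.41 (SE 0.25, adjusted p = 0.0411), and the + probe moved by -0.07. These loci are those at which the - strand was a study call above. At mouselincRNA0484, which was named because it is 1 of the 6, the difference was -1.47, -0.99 and -1.34 in sEV-BAT and -2.29, -2.49 and -2.43 in sEV-WAT, a shift of 1.14 (SE 0.19, adjusted p = 0.0411). At mouselincRNA0869 it was 3.56, 4.17 and 3.26 in sEV-BAT and 5.22, 5.47 and 5.01 in sEV-WAT, a shift of -1.57 (SE 0.28, adjusted p = 0.0413). The - probe of mouselincRNA0869 was undetected on every sEV-WAT array, so the pair was tested only through sEV-BAT, where that strand was higher. This shift therefore rests on values near background and on a filter that favours its direction, and it was -0.51 with normexp background correction.

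Other large shifts did not pass the adjusted threshold. The largest toward the - strand was at mouselincRNA0209, where the + minus - difference was -2.77, -1.40 and -3.69 in sEV-BAT and 0.12, -0.57 and -0.98 in sEV-WAT (shift -2.15, SE 0.60, limma adjusted p = 0.0797), and it was -0.71 with normexp. At mouselincRNA0118 the difference was 8.52, 7.48 and 6.94 in sEV-BAT and 7.92, 9.94 and 10.15 in sEV-WAT (shift -1.69, SE 0.68, adjusted p = 0.164), with overlapping groups. That shift lost the unadjusted threshold without sEV-BAT replicate 2 (-1.61), sEV-BAT replicate 3 (-1.34), sEV-WAT replicate 2 (-1.39) or sEV-WAT replicate 3 (-1.28), and it was -0.82 with slide as a block. The pair mouselincRNA1377 shifted by -1.19 (SE 0.26, adjusted p = 0.0528).

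Toward the + strand, mouselincRNA0578 had + minus - differences of 1.17, 0.18 and 2.44 in sEV-BAT and -0.09, -0.19 and -0.55 in sEV-WAT (shift 1.54, SE 0.55, limma adjusted p = 0.129). Its study call ended when any 1 array other than sEV-BAT replicate 2 was left out, with shifts from 0.95 (without sEV-BAT replicate 3) to 1.63 (without sEV-WAT replicate 1). The shifts at mouselincRNA1533 (1.50, SE 0.39, adjusted p = 0.0671), mouselincRNA0342 (1.26, SE 0.32, adjusted p = 0.0671) and mouselincRNA0770 (1.20, SE 0.32, adjusted p = 0.0708) were past the study thresholds with groups that did not overlap. The + probe of mouselincRNA0770 was detected on no sEV-WAT array, so that pair was tested only through sEV-BAT and its shift is set against a strand near background. With slide as a block the shifts of mouselincRNA1533, mouselincRNA0342 and mouselincRNA0770 were 0.92, 1.07 and 1.59. With normexp background correction those of mouselincRNA0342 and mouselincRNA0770 were 0.24 and 0.18, which ended both calls, and that of mouselincRNA0342 was 0.90 without normalization between arrays.

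At 3 loci the brighter strand changed between the kinds of vesicle on every array, the + probe being the brighter on all sEV-BAT arrays and the - probe on all sEV-WAT arrays, and at 0 loci the reverse was seen. These were mouselincRNA0543, mouselincRNA0578 and mouselincRNA1147, and the first and last are named because they were seen to have this pattern. None of the 3 shifts passed the adjusted threshold in limma. Whether the pattern was more frequent here than among all pairs of the array was not tested. mouselincRNA0543 was bright on both strands, with the + probe at 13.38, 13.62 and 13.79 in sEV-BAT and 13.14, 12.82 and 12.70 in sEV-WAT and the - probe at 13.33, 13.25 and 13.20 against 13.47, 13.61 and 13.67. Its + probe lay higher and its - probe lower in sEV-BAT with no overlap, and the shift was 1.03 (SE 0.25, limma adjusted p = 0.0591). At mouselincRNA1147 the + probe moved from 8.47, 8.39 and 8.40 in sEV-WAT to 9.05, 9.23 and 9.09 in sEV-BAT (difference 0.70, adjusted p = 0.0332) while the - probe stayed between 8.94 and 9.04 on all arrays. The shift at mouselincRNA1147 was 0.73 (SE 0.16, adjusted p = 0.0528). At mouselincRNA0543 and mouselincRNA1147 the signals of the strands lay close together, while at mouselincRNA0578 they were 2.44 apart on sEV-BAT replicate 3. At all 3 loci, which strand is more abundant as RNA cannot be read from probes of unequal binding.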

How the data were processed

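The authors scanned 6 one-colour Agilent arrays and deposited Feature Extraction (11.0.1.1) files with background-subtracted intensity per spot, and a table of log2 values, which by the study's methods were quantile normalized in GeneSpring. Per the file headers each array held 62976 spots, 1439 of them controls. Control and outlier spots were left out (2 mouselincRNA spots on sEV-WAT replicate 2, of mouselincRNA0101- and mouselincRNA0713-), spots of a probe were averaged, and log2 intensities were quantile normalized and fitted with limma (3.58.1, R 4.3.3) over the 54443 probes that the scanner marked well above background on 3 arrays or more, with Benjamini-Hochberg adjustment over them. Values per array were compared by exact two-sided permutation tests (scipy 1.17.1), for which 3 arrays against 3 allow no p under 0.1. The number of arrays limits the precision. The scripts were tested on simulated data.

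Named probes were the study calls with the largest differences, the 10 brightest, the pairs with the 6 largest shifts each way, and probes detected in 1 group only, the 10 with the highest mean in that group. The probes and lists were chosen with earlier results of these data known. The bound for an undetected probe sets the mean of the detected group against the mean, over the arrays of the other group, of the higher of the probe's own value and the lowest value marked as well above background. The alternatives were other scalings, background corrections and filters, the deposited log2 values, slide or replicate number as a block, an intensity trend, the methods' t-test, and each array left out. Normexp used median foreground and background signals, since the files give no mean signal, with an offset of 50. Scan time separated sEV-WAT replicate 2 alone. By the study's methods the 3 replicates came from separate pools of mice, so p-values measure the spread between pools. The labels do not say whether samples of equal number came from the same mice. Their deviations from the group means had r = -0.25, -0.09 and 0.22 over all probes. With 3 arrays per group these values cannot decide whether the samples are paired, and the main fit took no pairs.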

Additional observations from a re-analysis of the deposited data

How the results depend on the processing

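The 14 mouselincRNA probes and 20 strand pairs at the study thresholds kept their direction wherever they were tested under every alternative, and the detection and unnormalized brightness differences kept theirs under the alternatives run for them. After quantile normalization the median of the mouselincRNA probes was 5.25 in sEV-BAT and 5.33 in sEV-WAT, a difference of -0.08. The deposited log2 values kept all 14 and all 20 calls. Counts moved more. The 14 study calls became 90 without normalization between arrays and 7 with normexp, and ran from 12 to 36 with an array left out. The 35 adjusted calls became 323 without normalization, 62 with normexp, 16 with dim probes kept, 58 with an intensity trend, 0 with slide as a block, 0 with replicate number as a block and 0 by the methods' t-test (61, 124 and 131 at an unadjusted p of at most 0.05), and 0 to 45 with an array left out. The 20 pair shifts became 13 with normexp, 34 with dim probes kept and 12 with slide as a block, and 13 to 29 with an array left out. The 6 adjusted pair shifts became 11 without normalization, 11 with the percentile shift, 24 with normexp, 0 with dim probes kept (72 unadjusted), 13 with detection on all arrays, 0 with slide as a block, 0 with replicate number as a block (41 unadjusted) and 11 with an intensity trend, and 0 to 26 with an array left out. Without normalization the direction of 6 bright probes turned, to 0.0786 for mouselincRNA0161-, 0.44 for mouselincRNA0499+, 0.12 for mouselincRNA0706+, 0.44 for mouselincRNA0772-, 0.0257 for mouselincRNA0970- and 0.42 for mouselincRNA1437+. mouselincRNA0763+ turned to -0.22 with slide as a block, -0.11 without sEV-BAT replicate 2 and -0.07 without sEV-WAT replicate 1 (range -0.11 to 0.20), and mouselincRNA0772- to 0.0348 without sEV-BAT replicate 1 (range -0.21 to 0.0348). With replicate number as a block all 14 probes and 19 of the 20 pairs kept the study thresholds (not mouselincRNA0118). Whether samples of equal number share mice is not given. The cause of these changes was not tested.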
